A study of Mus musculus with 8 samples.

Results

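The 10 genes described here encode proteins of the focal adhesion, the site where integrins tie the extracellular matrix to actin: the kinases Ptk2 (FAK) and Ptk2b (Pyk2), the docking proteins Pxn (paxillin), Bcar1 (Crk-associated substrate, Cas) and Nedd9 (a Cas paralogue), the adaptors Crk and Crkl, talin Tln1 and the tensins Tns1 and Tns3. Their probes were taken by symbol, as all probes that the scanner files name for these genes. The genes themselves were chosen with earlier results of these data known. The 10 genes have 18 of the 55681 probes of the array, and all 10 were among the 20839 genes tested. The samples were mouse embryonic fibroblasts (MEFs, genotype Csk-/-, labelled CskKO) transfected with pBKT2-c-Src, a vector that makes c-Src when doxycycline is added (1 µg/ml). RNA was taken after 0, 6, 24 and 72 h of induction, from 2 samples a time on 8 arrays, each a 1-colour oligonucleotide array. All 4 groups share the Csk deletion and the vector, so the 0 h cells are uninduced cells of the same kind and not wild-type cells. Whether the line is 1 clone is not given in the sources used here.

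At a focal adhesion, talin binds the integrin tail and links it to actin, and tensins bind integrin tails nearby. FAK is recruited there, phosphorylates itself and so makes a docking site for Src, and the pair phosphorylate paxillin and Cas. The phosphorylated tyrosines of paxillin and Cas are bound by the SH2 domain of Crk and Crkl, whose SH3 domains carry exchange factors for Rac and Rap that act in spreading and migration. Csk normally restrains Src family kinases by phosphorylating their tail. The arrays measured transcript levels, and phosphorylation was not measured. The question of each comparison was how these transcripts differ between times of c-Src induction.

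A level is given here as the scaled signal, the processed intensity divided by the array's 75th percentile, so that 1 is the 75th percentile. Levels compare arrays for 1 probe and not probes with each other, since probes differ in brightness. All 18 probes were well above background on all 8 arrays, and none had an outlier spot. The 75th percentile lay between 370.3 and 393 intensity units and the correlation across genes of the 2 arrays of a time was 0.9964 to 0.9975. Src had scaled signals of 0.393 and 0.437 at 0 h, 11 and 11.3 at 6 h, 9.81 and 9.92 at 24 h and 8.15 and 8.12 at 72 h, and the Csk probe was well above background on none of the 8 arrays. Of 8 fibroblast markers, 7 were well above background on all arrays and Thy1 on none. The summed level of the fibroblast markers was 661 to 667 at 0 h, 655 to 667 at 6 h, 572 to 598 at 24 h and 572 to 575 at 72 h. The summed level of 5 epithelial markers was 4.7 to 4.89 at 72 h, against 2.59 to 2.92 at 0 h, with Epcam, Cdh1 and Cldn4 not well above background on any array. That of 4 adipocyte markers was 1.85 to 1.95 at 72 h, against 0.753 to 0.77 at 0 h, with Adipoq and Plin1 not well above it on any array. That of 5 macrophage markers was 1.46 to 1.6 at 72 h, against 1.04 to 1.15 at 0 h. The macrophage markers Adgre1, Ptprc and Tyrobp, the endothelial marker Cdh5 and the muscle markers Myod1, Myog and Actc1 were also not well above background on any array. Other markers of these types were well above it on all 8 arrays. They were the epithelial Krt8 and Krt18, the adipocyte Fabp4 and Pparg, the macrophage Csf1r, the endothelial Kdr and Pecam1 and the muscle Des. In bulk RNA, fewer cells of a type and less RNA per cell cannot be told apart, and the part of these marker changes in the results below was not tested. Replicate 1 of every time lay in column 1 of the slide and replicate 2 in column 2, and 52.1% to 54.7% of spots were well above background on the replicate 1 arrays, against 49.9% to 51.5% on the replicate 2 arrays. Time of doxycycline, time in culture and row on the slide run together with c-Src induction, and their effects cannot be told apart. The labels call the 2 samples of a time duplicates without naming separate cultures. Every p-value here therefore rests on array-to-array spread that may be technical.

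Bcar1 was higher at every later time, by 1.51-fold at 6 h, while its paralogue Nedd9 was lower at every later time, by 3.54-fold at 72 h. Tensin Tns3 was lower at every later time, by 2.44-fold at 72 h, and Tns1 was 1.17-fold lower at 72 h. Ptk2b was 1.27-fold higher at 72 h. The brightest probes of Ptk2, Pxn, Tln1, Crk and Crkl passed the test at none of the 3 times against 0 h, although other probes of Ptk2 and Crk did. In the limma fit with p-values adjusted over all 20839 genes (Benjamini-Hochberg, threshold 0.05), 1 of the 10 genes rose and 2 fell at 6 h, where 17.6% of all genes were called. At 24 h the counts were again 1 and 2, where 41.5% of all genes were called, and at 72 h they were 2 and 3, where 52.0% were called. A share of 3 in 10 or 5 in 10 is therefore near or below that of all genes at 24 h and 72 h. The median log2 difference of the 10 genes was 0.10 at 6 h, 0.03 at 24 h and -0.09 at 72 h, against 0.005, -0.016 and 0.002 over all genes tested. The median size of the difference, without its sign, was 0.16, 0.24 and 0.24 for the 10 genes, against 0.14, 0.23 and 0.28 for all genes. With 2 arrays per time, an exact permutation test of a single gene cannot give a p below 0.333, so the adjusted p-values below come from limma alone.

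**Figure D1:**
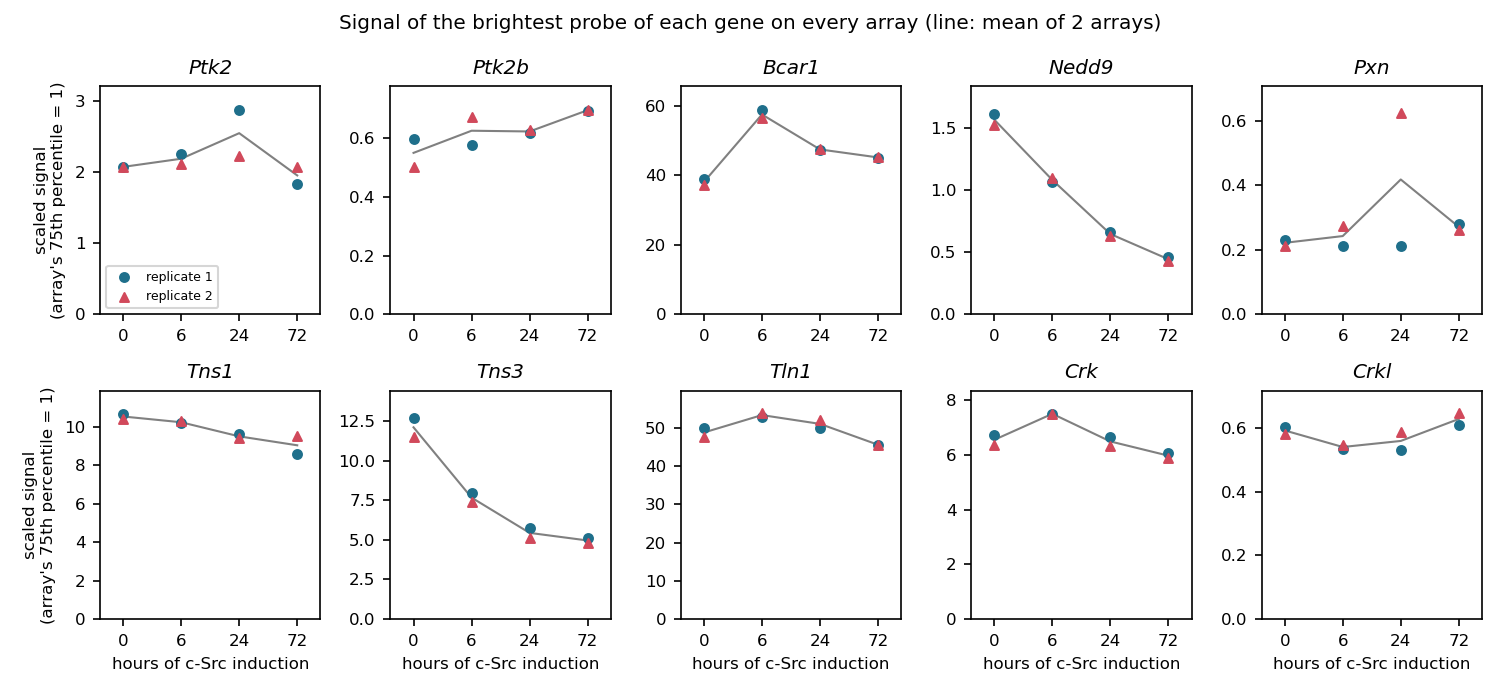
Scaled signal (y axis, the array's 75th percentile is 1) of the brightest probe of each of the 10 genes on every array, against hours of c-Src induction (x axis). Circles are replicate 1, triangles replicate 2 and lines the mean of the 2 arrays of a time. Nedd9 and Tns3 step down at each time, Bcar1 peaks at 6 h, and the 24 h arrays of Pxn lie far apart, at 0.213 and 0.623.

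**Figure D2:**
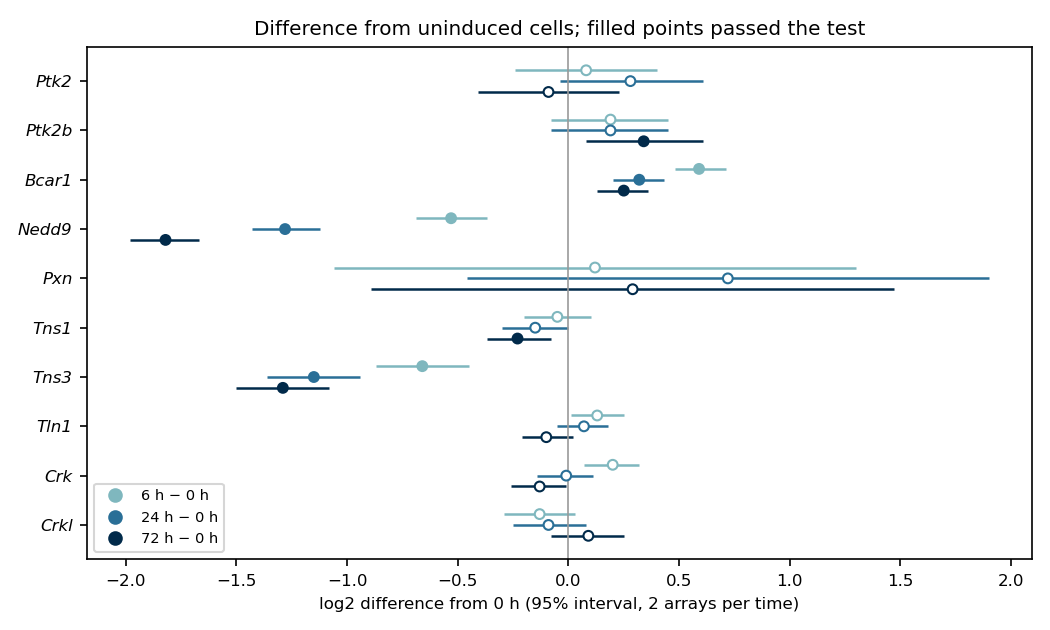
Log2 difference from 0 h (x axis) of the brightest probe of each gene at 6, 24 and 72 h. Bars are 95% intervals from the limma fit over 8 arrays, and filled points passed the test. The Nedd9 points lie at -0.53, -1.28 and -1.82, and the Pxn intervals are the widest of the 10 genes.

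Of the focal adhesion kinases, Ptk2 has 3 probes, all on chromosome 15, minus strand (mm9). Its brightest probe (chr15:73035632-73035691) had scaled signals of 2.07 and 2.08 at 0 h, 2.26 and 2.12 at 6 h, 2.87 and 2.23 at 24 h and 1.83 and 2.08 at 72 h. One 24 h array was high, and the 72 h arrays overlapped those of 0 h. The log2 differences from 0 h were 0.08, 0.28 and -0.09 at 6, 24 and 72 h (SE 0.13 each), and none passed the test (adjusted p = 0.72, 0.137 and 0.591 by limma). The 95% interval at 72 h ran from -0.41 to 0.23. Without 24 h replicate 2, the 24 h difference was 0.47 and passed (adjusted p = 0.0234). In the mean of the 3 probes, Ptk2 was higher with a call at 24 h (0.43, adjusted p = 0.00158) and at 72 h (0.34, adjusted p = 0.00236).

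A probe 116 kb upstream of the brightest Ptk2 probe (chr15:73151206-73151265), read with the transcript's strand, behaved differently. It is shown because it rose where the brightest Ptk2 probe had no call.
Ptk2 (FAK), 116 kb upstream of the last probe: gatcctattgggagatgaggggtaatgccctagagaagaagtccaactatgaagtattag
Its scaled signals were 0.427 and 0.424 at 0 h, 0.476 and 0.448 at 6 h, 0.524 and 0.521 at 24 h and 0.66 and 0.643 at 72 h. The arrays of each time lay above those of the time before without overlap. In a limma fit of all 28609 kept probes, where 38.8% were called at 24 h and 49.9% at 72 h, it rose by 0.30 at 24 h (1.23-fold, adjusted p = 0.00689) and by 0.61 ± 0.05 SE at 72 h (1.53-fold, adjusted p = 0.000377). Set directly against the brightest probe, its 72 h minus 0 h difference was larger by 0.71 ± 0.14 (adjusted p = 0.0231), where 15.5% of 7770 such probe pairs over all genes were called. No probe pair of the 10 genes was called at 6 h, at 24 h minus 6 h or at 72 h minus 24 h, where 0.0257%, 0.0901% and 2.84% of all pairs were. The Ptk2 difference at 72 h lost its call without 0 h replicate 1 (adjusted p = 0.0889), 0 h replicate 2 (0.0953), 72 h replicate 1 (0.111) or 72 h replicate 2 (0.0543). The remaining Ptk2 probe (chr15:73046031-73046090), 10.4 kb upstream of the last probe, had 0.114 and 0.107 at 0 h, 0.134 on both 6 h arrays, 0.158 and 0.204 at 24 h and 0.153 and 0.161 at 72 h. It rose by 0.70 at 24 h (1.63-fold, adjusted p = 0.00716) and by 0.51 at 72 h (1.42-fold, adjusted p = 0.0171). With normexp background correction its differences were 0.30 at 24 h (adjusted p = 0.0719) and 0.23 at 72 h (adjusted p = 0.124). Its 72 h call was lost without 0 h replicate 2 (adjusted p = 0.0774), 72 h replicate 1 (0.0549) or 72 h replicate 2 (0.0805), and leaving out either 24 h array brought a 6 h call (0.28, adjusted p = 0.0434).

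Ptk2b, a calcium-responsive relative of FAK, was read by its brightest probe at chr14:66772409-66772468 (mm9, minus strand). It had scaled signals of 0.599 and 0.502 at 0 h, 0.579 and 0.673 at 6 h, 0.618 and 0.629 at 24 h and 0.694 and 0.698 at 72 h. Both 72 h arrays lay above all others, and the 6 h arrays overlapped those of 0 h. The log2 differences were 0.19 at 6 h and at 24 h (adjusted p = 0.283 and 0.218) and 0.34 ± 0.11 SE at 72 h (1.27-fold, adjusted p = 0.0383 by limma). The 72 h call did not hold without 0 h replicate 2 (0.22, adjusted p = 0.146), either 24 h array (0.34, adjusted p = 0.062), 72 h replicate 1 (0.35, adjusted p = 0.118) or 72 h replicate 2 (0.34, adjusted p = 0.125). It was also lost in the mean of the 2 probes (0.19, adjusted p = 0.0884), with no filter on dim probes (adjusted p = 0.11), with only the 0 h and 72 h arrays (0.0637) and with the replicate number, and so the slide column, as a block (0.0609). The other Ptk2b probe (chr14:66772756-66772815), 0.347 kb upstream, ranged from 0.219 to 0.253 over the 8 arrays and differed by 0.03 at 72 h (adjusted p = 0.809).

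Pxn, the scaffold on which FAK, Src and Crk meet, is represented by a single probe (chr5:116004015-116004074, mm9, plus strand).
Pxn (paxillin): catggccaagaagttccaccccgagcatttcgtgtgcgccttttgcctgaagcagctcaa
Its scaled signals were 0.23 and 0.213 at 0 h, 0.211 and 0.274 at 6 h, 0.213 and 0.623 at 24 h and 0.28 and 0.262 at 72 h. A single array, 24 h replicate 2, stood apart, and the remaining 7 lay between 0.211 and 0.28. The differences from 0 h were 0.12, 0.72 and 0.29 (SE 0.48 each) and none passed the test (adjusted p = 0.891, 0.281 and 0.64 by limma). Without 24 h replicate 2 the 24 h difference was -0.06 (adjusted p = 0.824), and without 24 h replicate 1 it was 1.49 (adjusted p = 0.0047). With only the 0 h and 72 h arrays in the fit, the 72 h difference of 0.29 passed (adjusted p = 0.0362). The 24 h level of paxillin therefore rests on which of the 2 arrays is taken, and the wide interval at 72 h, from -0.89 to 1.47, carries the same spread.

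Bcar1, the Cas docking protein whose tyrosine repeats Src phosphorylates, has a single probe (chr8:114234418-114234477, mm9, minus strand). Its scaled signals were 39 and 37.1 at 0 h, 58.6 and 56.3 at 6 h, 47.2 and 47.6 at 24 h and 45 and 45.2 at 72 h. The 4 times did not overlap: 6 h was highest, and 24 h and 72 h lay between 6 h and 0 h. Bcar1 rose by 0.59 ± 0.05 SE at 6 h (1.51-fold, adjusted p = 0.00199 by limma), by 0.32 at 24 h (1.25-fold, adjusted p = 0.00382) and by 0.25 at 72 h (1.19-fold, adjusted p = 0.00737). It fell by 0.28 between 6 h and 24 h (adjusted p = 0.0113), where 26.2% of all genes were called, and from 24 h to 72 h the change was -0.07, with no call (adjusted p = 0.325). The 24 h minus 6 h call was lost without 6 h replicate 1 (-0.25, adjusted p = 0.068) and when arrays were scaled to their median (-0.18, adjusted p = 0.221), with no filter on dim probes (adjusted p = 0.0728) or with only the arrays of the times compared (adjusted p = 0.0582).

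Nedd9, the Cas paralogue also called HEF1, moved the other way. Its probe (chr13:41405822-41405881, mm9, minus strand) had scaled signals of 1.61 and 1.52 at 0 h, 1.06 and 1.1 at 6 h, 0.663 and 0.628 at 24 h and 0.46 and 0.425 at 72 h. Each time lay below the time before without overlap. Nedd9 fell by 0.53 ± 0.06 SE on the log2 scale at 6 h (1.44-fold lower, adjusted p = 0.00583 by limma), fell by 1.28 at 24 h (2.43-fold, adjusted p = 0.000158) and fell by 1.82 at 72 h (3.54-fold, adjusted p = 4.04e-05). Both later steps were downward too, -0.75 between 6 h and 24 h (adjusted p = 0.0016) and -0.55 between 24 h and 72 h (adjusted p = 0.00567), where 21.6% of all genes were called. It was the only one of the 10 genes with a call in all 5 comparisons, though the share of all genes so called was not counted. All 5 calls of Nedd9 held in the 19 alternative settings tried.

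Crk has 3 probes on chromosome 11, plus strand (mm9), and they did not move together. Its brightest probe (chr11:75518627-75518686) had scaled signals of 6.73 and 6.37 at 0 h, 7.5 on both 6 h arrays, 6.65 and 6.33 at 24 h and 6.06 and 5.88 at 72 h. The 6 h arrays were highest, the 72 h arrays lowest, and 24 h overlapped 0 h. Against 0 h its differences were 0.20, -0.01 and -0.13 (SE 0.05 each), and none passed the test (adjusted p = 0.0531, 0.858 and 0.0738 by limma). The 6 h difference passed with normexp (0.22, adjusted p = 0.0182), with probes well above background on all 8 arrays (0.0422), with an intensity trend (0.0154) and with the replicate block (0.0387). The 72 h difference passed with quantile normalization (-0.22, adjusted p = 0.0246), the intensity trend (0.0352) and the block (0.0464), and the mean of the 3 probes was higher at 24 h (0.23, adjusted p = 0.0446). It fell by 0.21 between 6 h and 24 h (adjusted p = 0.034 by limma). The call was lost without either 6 h array (adjusted p = 0.129 and 0.126), either 24 h array (0.0518 and 0.118) or either 72 h array (0.0644 each). It was also lost with arrays scaled to their median (-0.11, adjusted p = 0.487), with no filter (0.155), with only the arrays of both times (0.0979) and in the mean of the probes (0.09, adjusted p = 0.401).

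A Crk probe 12.7 kb upstream of the brightest (chr11:75505892-75505951) is shown because it moved the other way at 72 h.
Crk, 12.7 kb upstream of the last probe: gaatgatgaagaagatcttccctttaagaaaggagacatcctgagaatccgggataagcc
Its scaled signals were 0.284 and 0.264 at 0 h, 0.394 and 0.34 at 6 h, 0.442 and 0.47 at 24 h and 0.517 and 0.511 at 72 h. Each time lay above the time before without overlap. It rose by 0.42 at 6 h (1.34-fold, adjusted p = 0.0306), by 0.74 at 24 h (1.67-fold, adjusted p = 0.00195) and by 0.91 ± 0.09 SE at 72 h (1.88-fold, adjusted p = 0.000594). The 6 h call, in a fit where 14.8% of all probes were called, was lost without 0 h replicate 1 (adjusted p = 0.0793), 0 h replicate 2 (0.125), 6 h replicate 1 (0.1) or either 72 h array (0.0651 each), and with arrays scaled to their median (0.0639). Compared directly with the brightest probe, the 72 h minus 0 h difference of this probe was larger by 1.04 ± 0.10 (adjusted p = 0.00265), with adjusted p of at most 0.022 when any 1 array was left out. The same contrast at 24 h was 0.75 ± 0.10 (adjusted p = 0.0223), where 4.71% of probe pairs were called. That call was lost without either 0 h array (adjusted p = 0.0775 and 0.0971), either 24 h array (0.0544 and 0.105) or either 72 h array (0.0569 each). The remaining Crk probe (chr11:75517097-75517156), 1.53 kb upstream of the last, had 0.206 and 0.204 at 0 h, 0.192 and 0.168 at 6 h, 0.221 and 0.181 at 24 h and 0.156 and 0.136 at 72 h. It fell by 0.49 at 72 h (adjusted p = 0.0217), a call lost without 0 h replicate 1 (adjusted p = 0.0802), 0 h replicate 2 (0.0754) or 72 h replicate 2 (0.105), with arrays scaled to their median (-0.31, adjusted p = 0.172) and with quantile normalization (-0.36, adjusted p = 0.0728).

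Crkl, the closest relative of Crk, has a single probe (chr16:17486238-17486297, mm9, plus strand). Its scaled signals were 0.604 and 0.581 at 0 h, 0.535 and 0.546 at 6 h, 0.531 and 0.588 at 24 h and 0.611 and 0.646 at 72 h. The 6 h arrays lay below and the 72 h arrays above those of 0 h, by little. The differences were -0.13, -0.09 and 0.09 (SE 0.07 each), none of which passed the test (adjusted p = 0.221, 0.346 and 0.319 by limma), with a 95% interval of -0.08 to 0.25 at 72 h. With arrays scaled to their median the 72 h difference was 0.27 and passed (adjusted p = 0.0351).

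**Figure D3:**
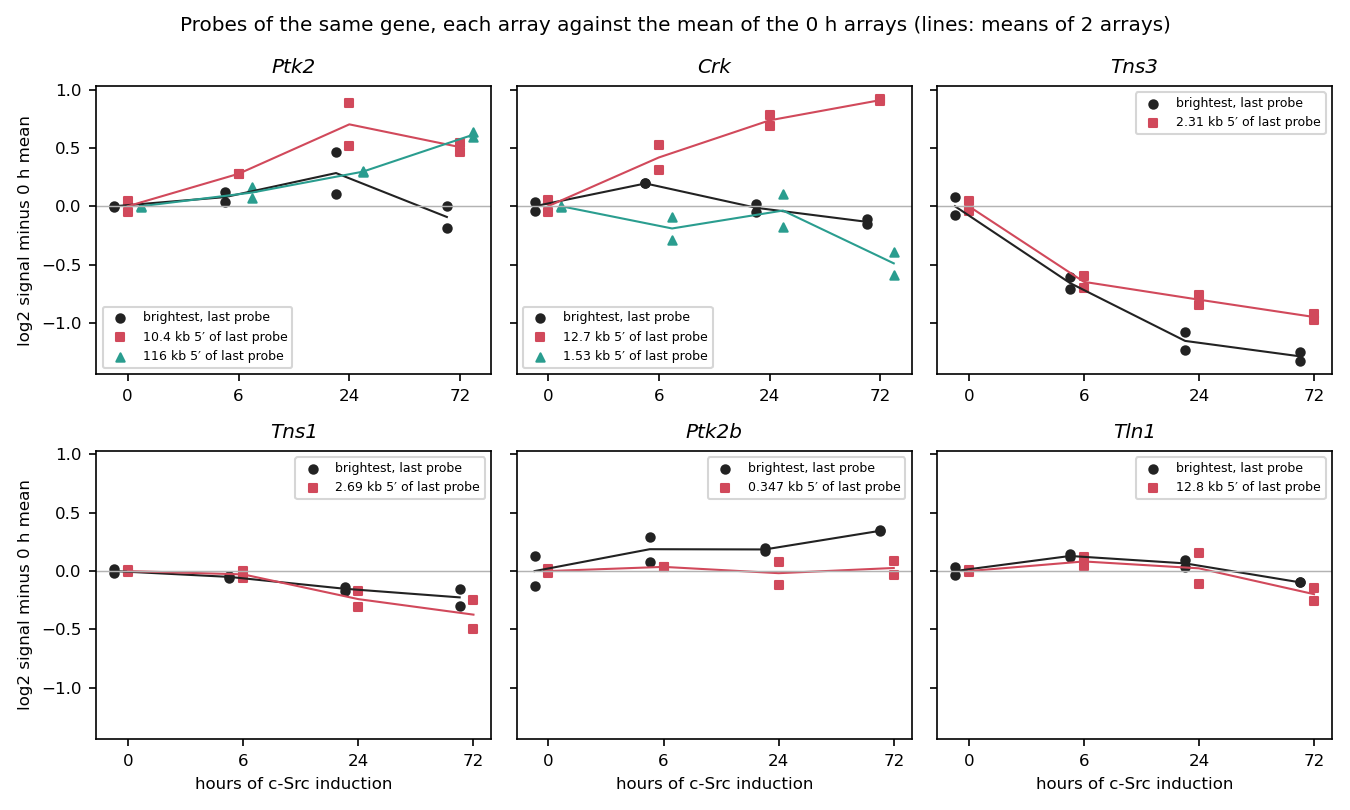
Log2 signal of every probe of the 6 genes with more than 1 probe, each array minus the mean of the 0 h arrays of that probe (y axis), against hours of c-Src induction (x axis). Black circles are the brightest probe, coloured squares and triangles the other probes with their distance upstream of the last probe, and lines join the means of 2 arrays. The Crk probes end at -0.13, 0.91 and -0.49 at 72 h, whereas both Tns3 probes fall.

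Tln1 encodes talin, which couples integrins to actin. Its brightest probe (chr4:43544393-43544452, mm9, minus strand) had scaled signals of 49.9 and 47.6 at 0 h, 52.8 and 53.8 at 6 h, 50 and 52 at 24 h and 45.5 and 45.6 at 72 h. The 72 h arrays were lowest and the 6 h arrays highest, within a narrow range. The differences were 0.13, 0.07 and -0.10 (SE 0.05 each) and none passed the test (adjusted p = 0.119, 0.316 and 0.135 by limma). The 72 h difference was -0.17 with a call under quantile normalization (adjusted p = 0.0216), and that of 72 h minus 24 h, -0.16, passed with an intensity trend (adjusted p = 0.0189). Its other probe (chr4:43557201-43557260), 12.8 kb upstream, differed by 0.08, 0.02 and -0.20, also with no call (adjusted p of at least 0.148).

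Tns3, a tensin that Src is known to phosphorylate in human cells, was the other gene that was lower at every time. The brightest of its 2 probes (chr11:8332187-8332246, mm9, minus strand) had scaled signals of 12.7 and 11.5 at 0 h, 7.93 and 7.4 at 6 h, 5.74 and 5.14 at 24 h and 5.1 and 4.82 at 72 h. The 4 times did not overlap, though the 24 h and 72 h arrays nearly met. Tns3 fell by 0.66 ± 0.08 SE at 6 h (1.58-fold lower, adjusted p = 0.00714 by limma), fell by 1.15 at 24 h (2.23-fold, adjusted p = 0.00039) and fell by 1.29 at 72 h (2.44-fold, adjusted p = 0.000161). The step of -0.50 between 6 h and 24 h passed (adjusted p = 0.0112) and that of -0.13 after it did not (adjusted p = 0.311). With no filter on dim probes the first of these steps lost its call (adjusted p = 0.0539 by limma). Without 6 h replicate 1 the first step was -0.45 (adjusted p = 0.0637), and with arrays scaled to their median -0.40 (adjusted p = 0.0901). The other Tns3 probe lies 2.31 kb upstream (chr11:8334497-8334556) and is shown because it fell as the brightest one did. Its capitals mark a stop codon that closes an otherwise open reading frame.
Tns3, 2.31 kb upstream of the last probe: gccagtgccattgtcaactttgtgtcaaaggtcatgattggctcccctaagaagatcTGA
This probe had 0.676 and 0.636 at 0 h, 0.404 and 0.433 at 6 h, 0.388 and 0.365 at 24 h and 0.346 and 0.333 at 72 h. All 6 induced arrays lay below both 0 h arrays. It fell at each time, with log2 differences of -0.65, -0.80 and -0.95 at 6, 24 and 72 h (adjusted p = 0.00476, 0.000662 and 0.00022). Its step of -0.15 between 6 h and 24 h had no call (adjusted p = 0.15 by limma). A further fall after 6 h was thus called in the brightest probe alone, but the 2 probes were not shown to differ in this step. Set directly against the brightest probe, the 24 h minus 6 h difference of the other probe was larger by 0.34, with no call (adjusted p = 0.182 by limma).

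Tns1, an actin-binding tensin, had the smallest difference of the 5 genes called at 72 h. Its brightest probe (chr1:73956848-73956907, mm9, minus strand) had scaled signals of 10.7 and 10.4 at 0 h, 10.2 and 10.3 at 6 h, 9.62 and 9.41 at 24 h and 8.59 and 9.51 at 72 h. The 24 h and 72 h arrays lay below those of 0 h and overlapped each other. The differences were -0.05 at 6 h, -0.15 at 24 h (adjusted p = 0.0939) and -0.23 ± 0.06 SE at 72 h (1.17-fold lower, adjusted p = 0.0229 by limma). The 72 h call was lost without 0 h replicate 1 (-0.21, adjusted p = 0.0955), 0 h replicate 2 (-0.24, adjusted p = 0.0639) or 72 h replicate 1 (-0.15, adjusted p = 0.099), and with arrays scaled to their median the difference was -0.04 (adjusted p = 0.722). It was lost with no filter (adjusted p = 0.0926) and with only the 0 h and 72 h arrays (0.0701), and the 24 h difference passed with quantile normalization (-0.23, adjusted p = 0.0284), normexp (-0.23, 0.0286) or an intensity trend (0.0386). Its other probe (chr1:73959540-73959599), 2.69 kb upstream, fell by 0.37 at 72 h (adjusted p = 0.0216), a call lost without either 0 h array (adjusted p = 0.0839 and 0.071) or 72 h replicate 1 (0.0763), and with arrays scaled to their median (-0.19, adjusted p = 0.158).

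The promoters of Nedd9 and Tns3 are shown as those of the 2 genes that fell at every time. Each is the 250 bases before the annotated start, from RefSeq on GRCm38.p6, 5′ to 3′ on the gene's minus strand, for Nedd9 at chr13:41359002-41359251 and for Tns3 at chr11:8664536-8664785. Capitals mark matches to the GC box GGGCGG on either strand.
Nedd9: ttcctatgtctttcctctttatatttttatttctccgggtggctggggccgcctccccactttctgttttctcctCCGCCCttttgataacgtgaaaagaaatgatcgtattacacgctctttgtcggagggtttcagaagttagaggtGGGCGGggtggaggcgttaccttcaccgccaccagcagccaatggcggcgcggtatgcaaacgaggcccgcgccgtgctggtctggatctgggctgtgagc
Tns3: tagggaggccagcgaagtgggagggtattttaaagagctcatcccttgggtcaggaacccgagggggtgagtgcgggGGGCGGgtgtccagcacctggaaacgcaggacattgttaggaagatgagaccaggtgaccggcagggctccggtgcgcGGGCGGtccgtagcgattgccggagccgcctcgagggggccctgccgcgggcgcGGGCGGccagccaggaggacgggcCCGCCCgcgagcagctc
RefSeq windows were matched for 7 of the 10 genes (8 windows, of which 2 belong to Bcar1). In the 250 bases, GC boxes numbered 4 for Tns3, 3 for Tns1, 2 for Nedd9, 3 and 2 for the windows of Bcar1, 1 for Crk and 0 for Crkl and Tln1. The GC box was found in 32.7% of all 32851 windows of that length. The 8 windows held 54.8% to 74.4% G and C bases, against a median of 52.4% over all windows. The part of this base content in the GC box counts was not tested. The AP-1 motif TGANTCA, the TEAD motif GGAATG and the CArG box of SRF were searched on both strands and had no match in any of the 8 windows, against 6.75%, 12.6% and 1.47% of all windows.

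Among the 10 genes, the log2 levels of Nedd9 and Tns3 followed each other over the 8 arrays (r = 0.96), as did those of Nedd9 and Tns1 (r = 0.90) and of Tln1 and Crk (r = 0.87), while Crk and Crkl ran opposite (r = -0.80). Nedd9 and Bcar1 did not track each other (r = -0.20). These values describe 8 arrays that share 4 times and 1 slide, so they mostly set 4 time profiles beside each other. Over 18832 genes well above background on all arrays, the profiles most like that of Nedd9 were Ppfibp2 and Mtus1 (r = 0.9974 each), Svbp and Pacc1 (0.9969 each) and Fam122b (0.9964). Those most like Bcar1 were Ehbp1l1 (r = 0.9959), D10Wsu102e (0.9941), F3, the gene of tissue factor (0.9918), and Ccl2, a chemokine gene (0.9882).

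The genes around the 10 in the same pathway were described from 5 lists of 68 genes, of which 61 were tested. The lists were chosen with earlier results of these data known, so a count above the share of all genes is no test of them. Of the 61 genes, 19 rose and 2 fell at 6 h, 23 rose and 9 fell at 24 h, and 28 rose and 15 fell at 72 h. Over all genes, 10.3% rose and 7.24% fell at 6 h, 21.3% and 20.1% at 24 h, and 27.4% and 24.6% at 72 h. Of 16 integrin-actin linkers, proteins that join the integrin tail to actin filaments, 11 rose at 6 h (median log2 difference 0.37), 7 rose and 2 fell at 24 h (0.19) and 13 rose and 2 fell at 72 h (0.34). Vinculin Vcl, which binds talin under tension, rose by 0.93, 0.57 and 0.67 at the 3 times (adjusted p of at most 0.000565 by limma). The LIM protein gene Zyx (zyxin) rose by 0.91, 0.45 and 0.48 (adjusted p of at most 0.00242). Parvb, a parvin that binds ILK, was well above background on 4 arrays, those of 0 h and 6 h, and not at 24 h and 72 h. It passed the filter only through the times where it was high, so its tests are not read as results. It is nonetheless among the linkers counted as falling at 24 h and 72 h. Its measured signal was 2.3-fold lower at 24 h than at 0 h. At 72 h it was 2.77-fold lower after a floor was applied. For each 72 h array, this value takes the higher of the probe's own signal and the dimmest signal that cleared background there. That floor is not the detection limit of this probe. At 24 h the Parvb signal was not below the floor and still did not clear background, so the 2.77-fold value is no strict bound. With normexp background correction, which raises dim signals by an offset, the Parvb differences were -0.28 and -0.54 at 24 h and 72 h. The 2.3-fold and 2.77-fold values therefore hold for the processed signal only. Kindlin Fermt3 fell by 0.80 at 72 h (adjusted p = 0.0121 by limma), a call lost without 0 h replicate 1 (-0.77). Its signal was dim, with mean log2 levels of -3.63 at 0 h and -4.43 at 72 h. Over the 19 alternatives the 72 h difference of Fermt3 ranged from -1.05 to -0.23.

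Of 7 integrin receptor genes, 3 rose at 6 h, 4 rose at 24 h, and 3 rose and 1 fell at 72 h (medians 0.12, 0.31 and 0.18). Itgb3, the beta chain of a vitronectin receptor, rose by 0.48 and 0.40 at 6 h and 24 h and fell by 0.94 at 72 h (adjusted p = 0.00857, 0.0053 and 0.000188), although its 6 h call was lost without 6 h replicate 2 (0.44, adjusted p = 0.0562). The laminin receptor chain Itga6 rose by 0.38, 0.75 and 0.86 (adjusted p = 0.00629, 0.000255 and 8.93e-05). Itga5, a fibronectin receptor chain, rose by 0.55 at 6 h (adjusted p = 0.013), a call lost without 0 h replicate 1 (0.46, adjusted p = 0.0548) or 6 h replicate 2 (0.48, adjusted p = 0.0707). It rose by 0.37 and 0.31 at 24 h and 72 h (adjusted p = 0.0185 and 0.0272), calls lost without 0 h replicate 1 (0.28 and 0.22, adjusted p = 0.0785 and 0.116), 24 h replicate 2 at 24 h (0.32, adjusted p = 0.084) or either 72 h array at 72 h (0.34 and 0.28, adjusted p = 0.0742 and 0.116). Its partner Itgb1 rose by 0.46 at 72 h (adjusted p = 0.00648).

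Of 5 tested paralogues of the 10 genes, 1 rose at each time, and 1 fell at 24 h and 2 at 72 h. The paxillin paralogue Tgfb1i1 (Hic-5) rose by 1.59, 1.05 and 1.88 at 6, 24 and 72 h (adjusted p of at most 0.000404 by limma), whereas Pxn itself had no call. Of the other Cas family genes, Efs differed by -0.07 at 24 h and 0.03 at 72 h with no call (adjusted p = 0.772 and 0.884), and Cass4 did not pass the filter. The tensin Tns2 fell by 0.45 at 72 h (adjusted p = 0.00128), as Tns1 and Tns3 did. The talin Tln2 fell by 0.19 at 72 h (adjusted p = 0.022), a call lost without either 0 h array (adjusted p = 0.0693 and 0.0868) or either 72 h array (0.104 and 0.0717).

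Of 22 partners and effectors of FAK, Cas and Crk, 2 rose and 2 fell at 6 h, 7 rose and 3 fell at 24 h, and 7 rose and 7 fell at 72 h (medians 0.05, 0.10 and -0.02). Pak2, a kinase that Rac activates, rose by 0.45 and 0.62 at 24 h and 72 h (adjusted p = 0.00229 and 0.000476). Sorbs3, which encodes the vinculin-binding adaptor vinexin, fell by 0.57 at 6 h (adjusted p = 0.0191), a call lost without either 0 h array (adjusted p = 0.0661 and 0.0891) or either 6 h array (0.0561 and 0.102). It fell by 0.44 at 72 h (adjusted p = 0.0161), a call lost without 0 h replicate 2 (adjusted p = 0.0749), 72 h replicate 1 (0.0575) or 72 h replicate 2 (0.0736). Sh2d3c, a Cas-binding exchange factor gene, fell by 0.78 at 6 h (adjusted p = 0.0106), a call lost without 0 h replicate 1 (adjusted p = 0.0517), 6 h replicate 1 (0.0509) or 6 h replicate 2 (0.0656). The last list, called the restraining genes, holds phosphatases, GTPase-activating proteins and inhibitors. The name need not hold for each of them, such as the phosphatases Ptpn11 and Ptpra. Of its 11 tested genes, 2 rose at 6 h, and 4 rose and 3 fell at both 24 h and 72 h (medians 0.04, 0.01 and 0.10). Ptpn11 was among those that rose at 6 h and at 24 h. Rasa1, a Ras GTPase-activating protein, rose by 0.94 and 0.88 at 24 h and 72 h (adjusted p = 0.000286 and 0.000192). Dlc1, a GTPase-activating protein that binds tensins, fell at 24 h and 72 h (-0.46 and -0.73, adjusted p = 0.00569 and 0.00072), though its 24 h call was lost with arrays scaled to their median (-0.31, adjusted p = 0.0664). Arhgap5, another GTPase-activating protein, fell by 0.52 at 24 h (adjusted p = 0.0261), a call lost without 0 h replicate 1 (-0.36, adjusted p = 0.0945) or 24 h replicate 1 (-0.41, adjusted p = 0.111).

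When any 1 array was left out, linkers that rose numbered 7 to 11 at 6 h and 9 to 13 at 72 h, and integrin genes that rose 1 to 3 at 6 h and 2 to 4 at 24 h. Partners that rose then numbered 0 to 2 at 6 h, 2 to 7 at 24 h and 4 to 7 at 72 h, and those that fell 0 to 2, 1 to 4 and 5 to 7. Restraining genes that rose numbered 0 to 2 at 6 h, and those that fell 1 to 3 at 72 h. With arrays scaled to their median, which moves the median of all genes to 0.133 at 24 h and 0.183 at 72 h, 10 partners rose and 1 fell at 24 h, and 7 rose and 2 fell at 72 h. Of the linkers, 12 then rose and 1 fell at 24 h, and 14 rose and 2 fell at 72 h. Of the restraining genes, 5 rose and 0 fell at 24 h, and 6 rose and 1 fell at 72 h. Over all 20839 genes, this scaling gave 6042 that rose and 2052 that fell at 24 h. At 72 h it gave 8022 and 2664, so calls moved upward over the whole array. With quantile normalization 4 partners rose and 4 fell at 24 h, where 4168 of all genes rose and 4447 fell.

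**Figure D4:**
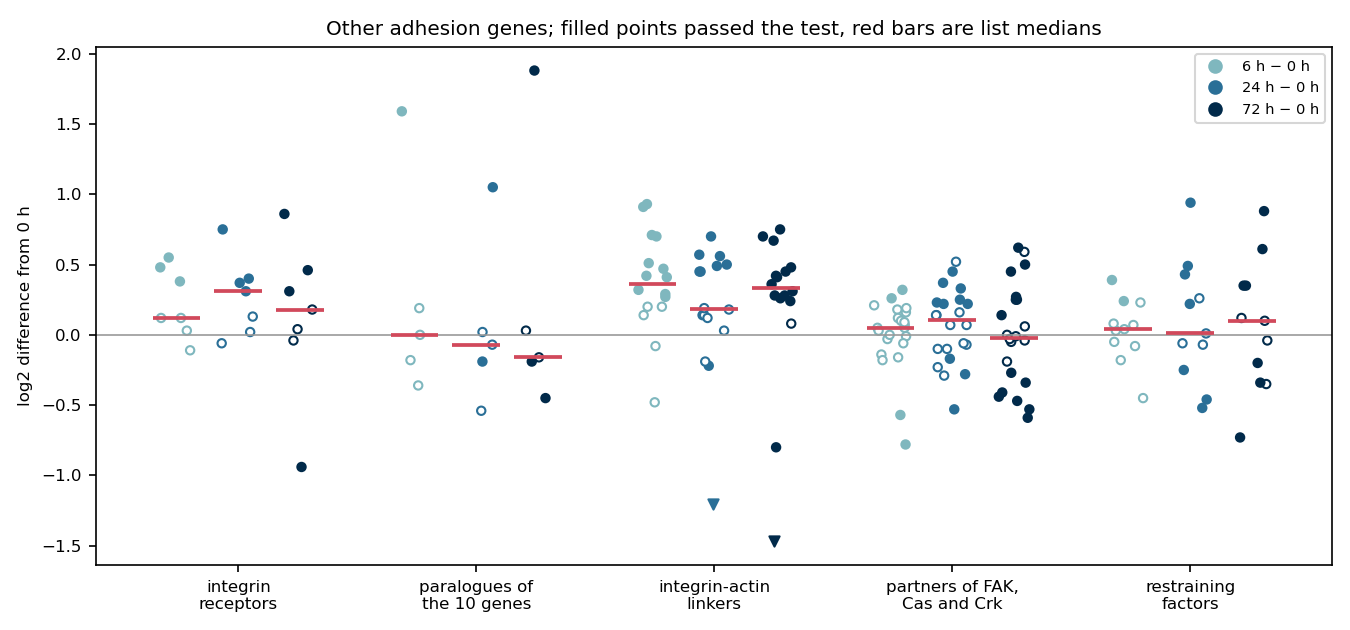
Log2 difference from 0 h (y axis) of the tested genes of the 5 lists at 6, 24 and 72 h. Each point is a gene, filled where it passed the test, and red bars are list medians. Triangles are Parvb, which was not well above background at 24 h and 72 h. They lie at its measured value at 24 h and at its value after the floor was applied at 72 h. The linkers lie mostly above 0, and the highest point in each column of the paralogues is Tgfb1i1.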

How the data were processed

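RNA of 8 samples was hybridised, 1 per array, and the processed signal of each spot, as deposited, is a linear intensity. Per the file headers it came from Agilent Feature Extraction 10.5.1.1 with an mm9 design, whereas 10.7.3.1 is named in the submitters' processing notes. The value table deposited by the authors holds the same intensity, within 0.497%, and served as an alternative. Groups came from the labels. Signals were put on the log2 scale and each array's 75th percentile over 59305 non-control spots was subtracted. Spots flagged as outliers were left out and spots of a probe averaged. Probes were kept where both arrays of 1 or more times were well above background (28609 of 55681 probes), and the probe with the highest mean stood for its gene. The number of arrays limits the precision.

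For the 5 comparisons between times, limma 3.58.1 was run in R 4.3.3 (4 means over 8 arrays, residual degrees of freedom 4, prior 1.7), with Benjamini-Hochberg adjustment over all genes. The fit was tested on simulated data. Same-numbered arrays of different times correlated in their deviations by 0.06 to 0.17, and the labels tie them to nothing shared, so numbers were not used as pairs. The number is also the slide column, so the fit with it as a block covers both. Alternatives were other scalings, background corrections, filters, probe rules, priors, samples and the leaving out of each array. The genes and lists were chosen with earlier results of these data known, and the tests of differences between probes after the data were seen. Named are all 10 genes, up to 4 called genes of each list by size (some are not reported here), and the 5 closest profiles of the largest rise and fall, of which 1 known only by a transcript identifier is left out. Exon and UTR annotation and protein sequences were not used here. Python 3.11.15, pandas 2.3.3 and matplotlib 3.10.9 drew the figures.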

Additional observations from a re-analysis of the deposited data

How the results depend on the processing

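Over the 10 genes, 5 comparisons and 19 alternatives, 878 values kept direction and side of the threshold, 31 lost a call and 22 gained one with no change of sign, and 19 changed sign. The calls of Bcar1, Nedd9 and Tns3 against 0 h held in all 19. Scaling to the median turned Ptk2 at 72 h to 0.09, Tln1 at 72 h to 0.08 and at 24 h minus 6 h to 0.03, Crk to 0.14 at 24 h and 0.05 at 72 h, Crkl at 24 h to 0.06 and Sh2d3c at 72 h to 0.15. Taking the mean of a gene's probes turned Ptk2 at 72 h to 0.34, and Crk to 0.23 at 24 h, 0.1 at 72 h and 0.09 at 24 h minus 6 h, since their probes differ. Of these, Ptk2 at 72 h and Crk at 24 h gained a call (adjusted p = 0.00236 and 0.0446). Quantile normalization gave Tln1 at 24 h -0.03 and Sh2d3c at 72 h 0.09. Normexp gave Crk at 24 h 0.03 and Tln2 at 24 h -0.01. Leaving out 1 array gave Pxn -0.07 to 0.31 at 6 h, -0.06 to 1.49 at 24 h, -0.18 to 1.37 at 24 h minus 6 h and -1.2 to 0.35 at 72 h minus 24 h. It gave Crk -0.05 to 0.03 at 24 h (0.02 without 24 h replicate 2), Crkl -0.03 to 0.12 at 24 h minus 6 h, Sh2d3c -0.14 to 0.08 at 72 h and Tln2 -0.01 at 24 h without 24 h replicate 1. Of the values that changed sign, Crk at 24 h minus 6 h alone had a call as reported (-0.21), which it lost (adjusted p = 0.401). Scaling to the median subtracts a different constant from each array, so within a comparison it moved the difference of every gene alike. The median over all genes moved from -0.016 to 0.133 at 24 h and from 0.002 to 0.183 at 72 h. The cause of the sign changes other than those from median scaling and the mean of probes was not tested.

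The number of the 10 genes called was 5 at 24 h with the mean of probes (reported 3) and 3 at 72 h with no filter on dim probes (reported 5). At 24 h minus 6 h it was 1 under median scaling and with no filter and 2 with only the arrays of the times compared (reported 4). At 72 h minus 24 h it was 3 with an intensity trend in the prior (reported 1). As reported, 26.2% of all genes were called at 24 h minus 6 h and 21.6% at 72 h minus 24 h. Over all genes, the mean of probes gave 8593 calls at 24 h. No filter gave 7853 calls over all genes at 72 h, from a larger set of tested genes, against 10844 as reported. Median scaling gave 4318 at 24 h minus 6 h and the intensity trend 5892 at 72 h minus 24 h. Leaving out 1 array gave 3 to 3 at 6 h, 3 to 4 at 24 h, 3 to 5 at 72 h, 1 to 4 at 24 h minus 6 h and 1 to 2 at 72 h minus 24 h. Over all genes, 3660 calls at 6 h became 2283 under median scaling, 871 with no filter, 1812 with only the arrays of the times compared and 1216 to 3591 without 1 array, and 8645 at 24 h became 5600 with no filter. The 5452 calls of 24 h minus 6 h became 2044, 2682 and 2626 to 4655 under the last 3 of these, and the 4511 of 72 h minus 24 h became 2627 under median scaling, then 929, 1080 and 1082 to 3919. Scaling to the median raised the share of calls that were up to 76.9% at 6 h, 74.6% at 24 h, 75.1% at 72 h, 69% at 24 h minus 6 h and 61.7% at 72 h minus 24 h, against 58.8%, 51.5%, 52.7%, 48.1% and 49.9% as reported, and quantile normalization gave 46.9% at 6 h.

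With the replicate block, Ptk2b at 72 h lost its call (0.34, adjusted p = 0.0609), while calls were gained by the brightest Crk probe, with 0.20 at 6 h (adjusted p = 0.0387) and -0.13 at 72 h (0.0464). The replicate numbers pair nothing the labels name, though they match the slide columns. The block changed no other call of a brightest probe. Among other probes of the 10 genes it ended the call of Crk at 24 h minus 6 h (0.32, adjusted p = 0.0558), and it brought calls of Ptk2 at 24 h minus 6 h (0.18, adjusted p = 0.0486) and of Crk at 72 h minus 24 h (-0.45, adjusted p = 0.0257).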
